A study of Drosophila melanogaster with 33 samples.

Results

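In the Drosophila melanogaster midgut, 42 genes that carry only a CG number, the running number of a predicted gene, stood high at 12 h after puparium formation (APF) and low at the earlier stages used to choose them. Levels were deposited as log ratios, read here as log2 ratios (base and direction inferred, as set out with the processing) of midgut RNA at a stage over a pooled midgut reference, averaged over the probes of a gene on each array and then over the arrays of the stage. A gene was taken when its mean at 12 h exceeded by 1.5 or more each of its means at 18 h before, at, and 6 h after puparium formation, and did not fall short of its 8 h mean by 1 or more. A stage mean needed at least 2 array values. Of 9905 genes with any value, 4114 had a CG number, 2087 of those had all 5 of these means, and 42 were kept, among them CG7997 and CG11570. The genes were thus chosen by their measured levels at those 5 stages. Those levels, and differences built on them, are therefore given as descriptions with no test, and tests were made only between the 6 stages that did not choose the genes.

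The study followed the midgut of the Canton S strain with 33 two-colour arrays, 3 for each of 11 stages. These were 18 and 4 h ahead of puparium formation (BPF), its moment (0 h), hourly from 2 to 6 h APF, and 8, 10 and 12 h APF. On every array the amplified RNA of 1 stage carried Cy5 and the reference, a mixture of the midgut RNA of 10 stages with 10 h left out, carried Cy3. The labels name the arrays of a stage a, b and c and say that they came from independent samples, so the p-values below measure the spread between these arrays, and whether animals were pooled is not given in the sources used here. A value of 0 is the level of the reference, and a difference of 1 between stages is a 2-fold difference. In whole midguts, more cells of a type and more RNA per cell cannot be told apart.

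At metamorphosis of the fly, pulses of the steroid hormone ecdysone start the replacement of the larval midgut. The larval epithelium is shed into the lumen and digested there, while progenitor cells that lay scattered or in small nests along the larval gut build a transient pupal epithelium and then the adult one. The visceral muscle around the gut is remodelled in the same period. A further ecdysone pulse in the late prepupa comes before head eversion, the outward sign of pupation.

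Single arrays held 7006 to 13966 probe values, and arrays of the same stage correlated at 0.59 to 0.86. Of 495 pairs of arrays from different stages, 100 correlated below -0.3, with -0.53 as the lowest. Cy5 marks the stage sample on every array, and each value is a ratio to a pool of 10 of these same stages. At each late stage 1 array gave low values for the 42 genes. At 10 h the median over the genes was 1.69 on array a, 1.15 on b and 0.61 on c, and c was the lowest of the 3 for 25 of the 38 genes with 3 values, against 32.4% of all genes with the 5 means. At 12 h the medians were 2.32 on a, 1.62 on b and 2.40 on c, and b was the lowest for 24 of 36 genes, against 42.5% of all genes. The count of genes that rose at 10 h over 5 h is given below also without array c of 10 h, and the excesses at 12 h also without array b of 12 h.

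The 42 genes lay between 1.30 and 3.26 at 12 h, with a median of 2.15. The highest of their 3 earlier means ran from -3.65 to 0.35, with a median of -0.38. The excess at 12 h, which is the 12 h mean minus that highest earlier mean, ran from 1.5 to 6.65 with a median of 2.27, or as folds from 2.84 to 100.4 with a median of 4.84. Without array b of 12 h, an alternative added after the data were seen, the 37 genes with values on a and c had excesses from 1.45 to 7.22 with a median of 2.47, and the excess was larger in 31 of them. It changed by over 1.5-fold in CG16704 (3.46 without b, 2.74 with it), CG3604 (3.18 and 2.55) and CG13285 (2.32 and 1.71), and came below the threshold in CG8785 (1.45). The median over the genes was -0.94 at 18 h BPF, -1.44 at 4 h BPF, -1.55 at 0 h, -1.31 at 2 h, -0.70 at 6 h, 0.29 at 8 h, 1.09 at 10 h and 2.15 at 12 h. The lowest stage was 0 h for 13 genes, 4 h BPF for 9 and 2 h for 9, and 11 genes had their lowest mean elsewhere. None of the stages left out of the choice before 10 h reached the 12 h mean of its gene. In 14 genes one of them did exceed the highest earlier mean, the furthest being CG7888 with 0.76 at 2 h.

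**Figure D1:**
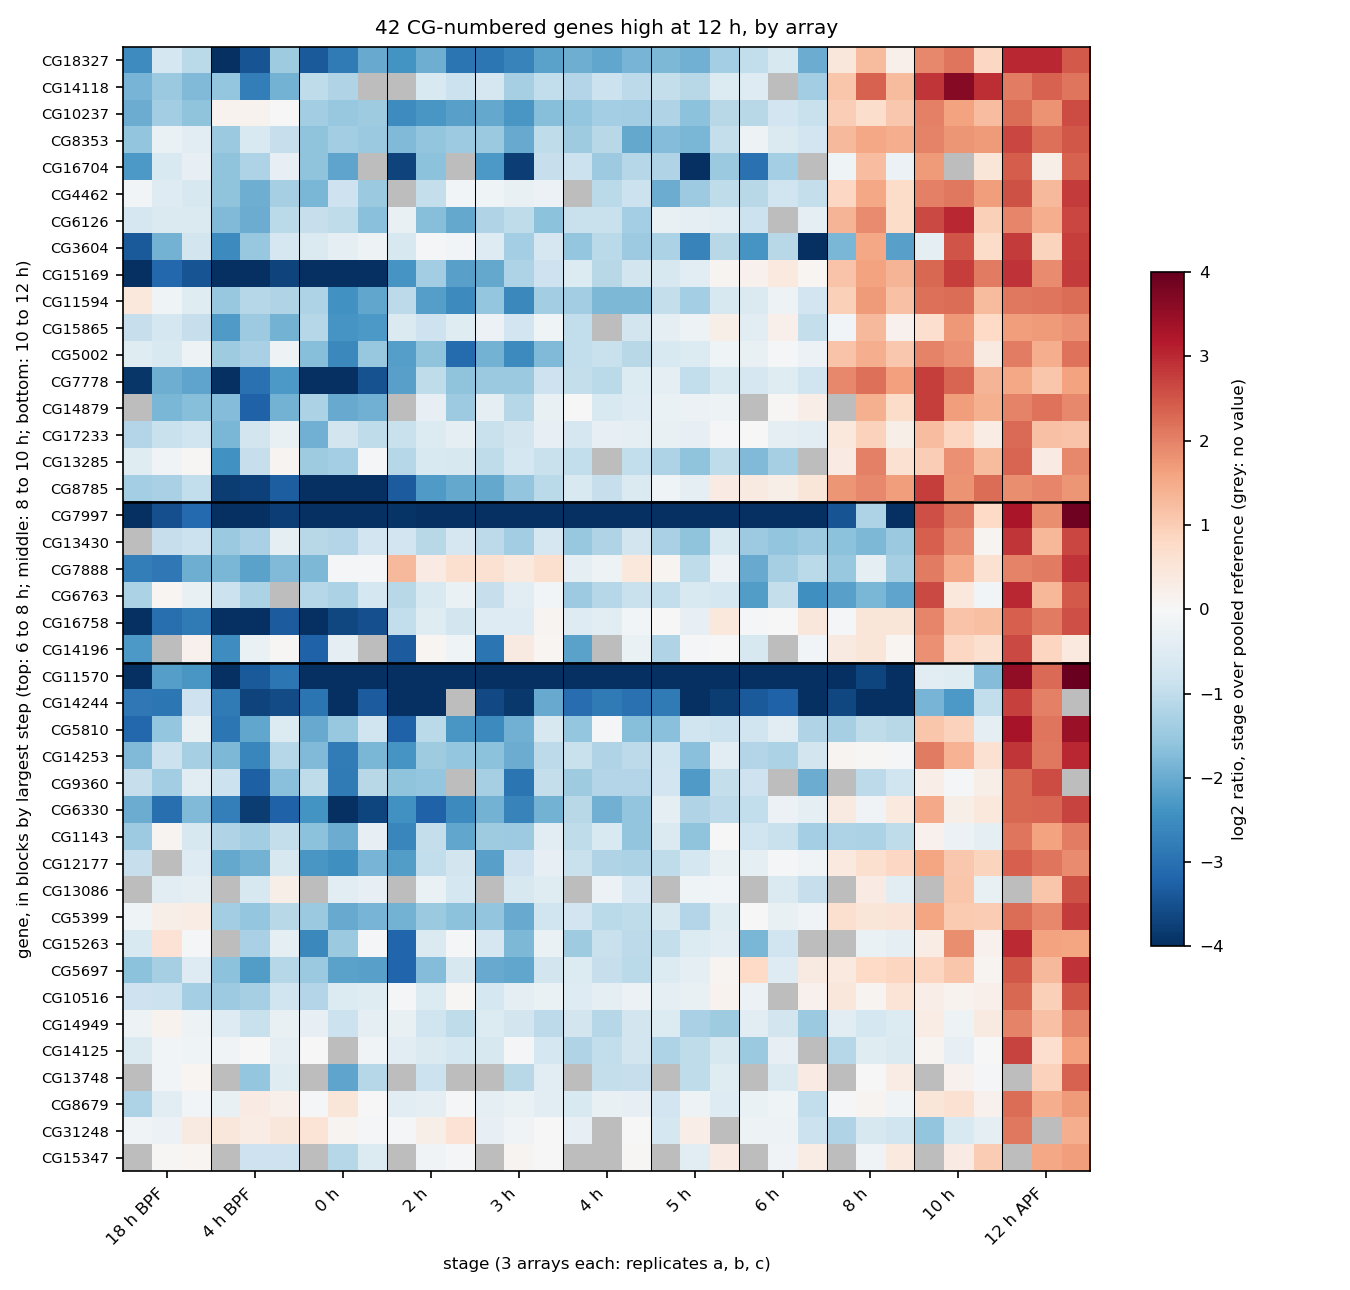
Log2 ratio of stage over reference for the 42 genes (one line of cells per gene) on each of the 33 arrays (columns, 3 per stage, time running left to right), with grey for no value and colours saturating at 4 and -4. The blocks separate 17 genes with their largest late step between 6 and 8 h (top), 6 between 8 and 10 h (middle) and 19 between 10 and 12 h (bottom); red is seen at 12 h in all 3 blocks, and at 8 h mainly in the top one.

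The course up to 12 h differed among the genes. At 8 h, 28 of the 42 already stood above their highest earlier mean, 6 of them by 1.5 or more. At 10 h, 40 stood above it, 19 by 1.5 or more. The 2 below it at 10 h were CG31248 and CG14125. The mean was highest at 12 h in 38 genes and at 10 h in the other 4, CG14118, CG6126, CG7778 and CG8785. "High at 12 h" therefore held for all 42 by construction, but for these 4 genes the peak of the deposited series was at 10 h. Of 5527 genes with all 11 stage means, 10.3% had their highest mean at 12 h and 6.84% at 10 h. The choice favoured 12 h in the 42 genes. All 12 h arrays lay above all 10 h arrays in 21 genes, and the opposite held for CG14118 alone. The gap was as small as 0.0019 in CG13086, with 2 arrays a stage, and 0.036 in CG14253. Because the 12 h arrays helped choose the genes, this order was favoured by the choice, and it was not counted over all genes.

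CG7997 had the largest excess, 6.65 or 100.4-fold, and 149.6-fold without array b of 12 h. The gene encodes a protein of the alpha-galactosidase family, glycosidases that cut terminal galactose from sugar chains. Its arrays a, b and c gave -3.45, -1.23 and -3.99 at 8 h, 2.58, 2.10 and 0.81 at 10 h, and 3.26, 1.84 and 3.89 at 12 h. Before 8 h all 24 of its arrays lay at -3.11 or lower. The step of 4.72 between the 8 and 10 h means was the largest late step of any of the 42 genes, and the 10 and 12 h arrays overlapped.

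CG11570, whose synonym in the gene table is mlncRNA68E3, came later. Its arrays gave -5.13, -3.69 and -4.70 at 8 h, -0.41, -0.49 and -1.75 at 10 h, and 3.56, 2.28 and 3.95 at 12 h. The 3 stages did not overlap, with the 12 h arrays at least 2.69 above the highest 10 h array. The excess was 6.13, or 70.3-fold, and 98.8-fold without array b of 12 h. Its highest mean before 10 h was that of 18 h BPF, -2.87, with arrays at -4.08, -2.21 and -2.33.

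CG14244, for which no role is given here, had the third largest excess at 4.56. It stood at -1.85, -2.28 and -1.0 at 10 h and at 2.72 and 2.03 on the 2 arrays with a value at 12 h. Its step of 4.09 between the 10 and 12 h means was close in size to that of CG11570, 4.14. A gene with RNA at only 1 of the 10 equally mixed stages could reach at most 3.32 on this scale. At 12 h CG7997 and CG5810 exceeded this limit on 1 array each and CG11570 on 2. The 12 h stage held 95.3% of the summed linear ratios of the pooled stages for CG11570, 94.4% for CG7997 and 85.5% for CG14244, against a median of 44.5% over the 40 genes with a mean at every pooled stage and a lowest share of 28.5%.

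**Figure D2:**
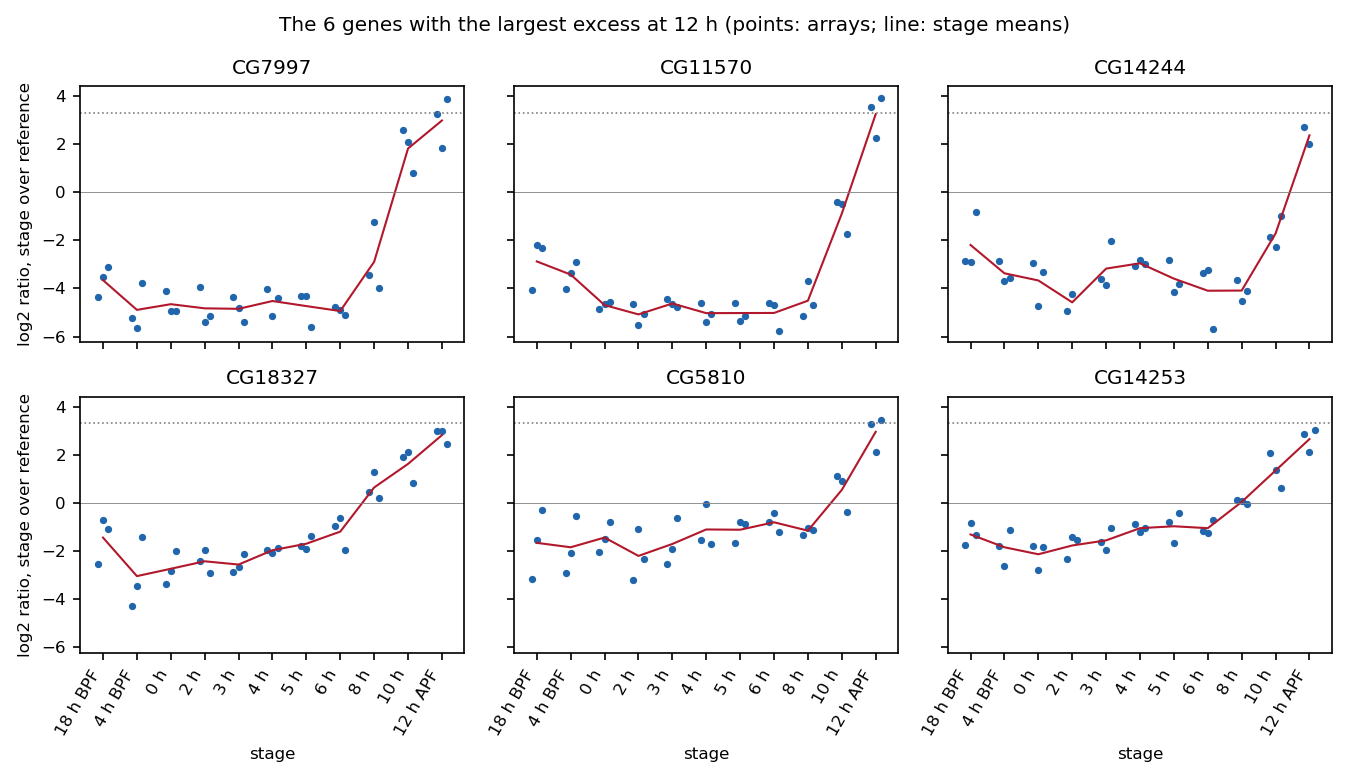
Array values (points, log2 ratio of stage over reference) and stage means (line) of the 6 genes with the largest excess at 12 h across the 11 stages; the dotted line marks 3.32, the limit for RNA found in 1 pooled stage only. CG7997 is high at 10 and 12 h, CG11570 and CG14244 at 12 h only, and CG18327 and CG14253 climb in smaller steps.

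Of the next genes by excess, CG18327, of the mitochondrial carrier family, gave 0.45, 1.28 and 0.21 at 8 h, 1.92, 2.14 and 0.82 at 10 h, and 3.02, 3.00 and 2.45 at 12 h. CG5810 gave -1.32, -1.02 and -1.12 at 8 h, 1.12, 0.91 and -0.40 at 10 h, and 3.30, 2.14 and 3.45 at 12 h. CG14253 gave 0.11, 0.06 and -0.04 at 8 h, 2.07, 1.38 and 0.61 at 10 h, and 2.85, 2.10 and 3.02 at 12 h. In all 3 genes the 12 h arrays lay above the 10 h arrays. CG9360, a short-chain dehydrogenase that the gene table also lists as FOHSDR, was at -1.05 and -0.81 on 2 arrays at 8 h, 0.28, -0.06 and 0.24 at 10 h, and 2.29 and 2.62 on 2 arrays at 12 h.

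The member nearest to the threshold was CG8785, with an excess of 1.5, followed by CG15347 with 1.53 and CG31248 with 1.58. Just outside lay CG14515 with 1.48, CG17026 with 1.43 and CG17329 with 1.41. CG14515 gave 2.19, 0.26 and 1.60 at 12 h, against 0.20 or less on every earlier array. A further 5 CG-numbered genes, CG11029, CG12395, CG2604, CG9380 and CG9837, showed the excess over the means they had but lacked 1 or more of the 5 stage means. In 22 of the 42 genes all 33 arrays had a value, and CG13748 and CG15347 had the fewest, 21.

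**Figure D3:**
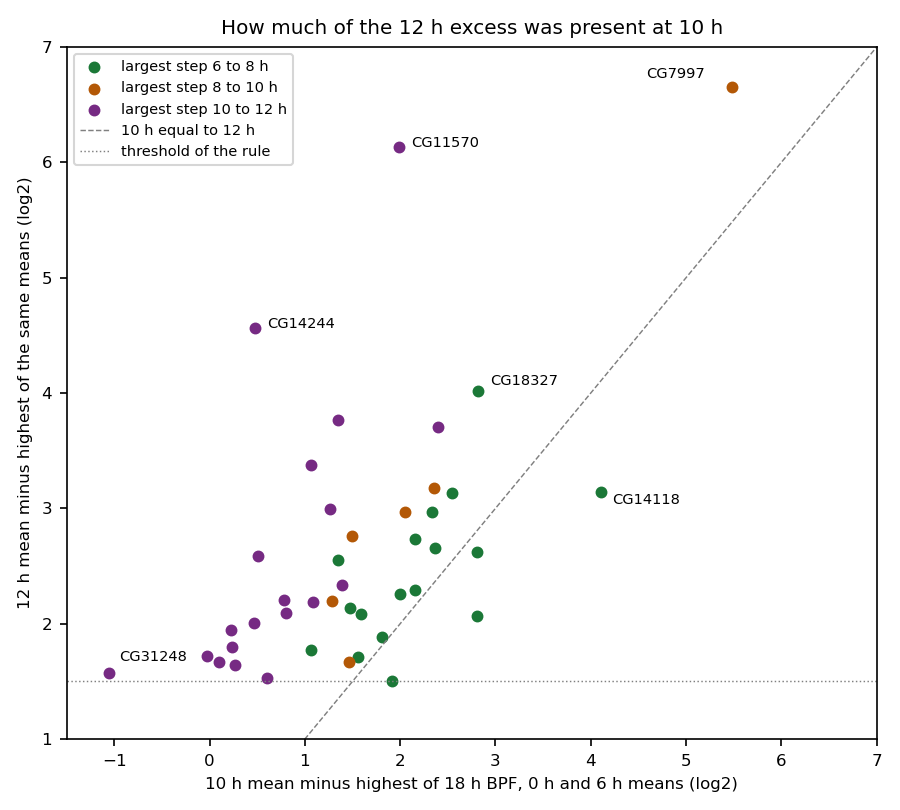
For each of the 42 genes, the 12 h mean (vertical axis) and the 10 h mean (horizontal axis), both as log2 difference from the highest of the 18 h BPF, 0 h and 6 h means, coloured by the largest late step; the dashed line marks equal levels at 10 and 12 h and the dotted line the threshold of 1.5. The 4 points right of the dashed line are the genes that peaked at 10 h, and CG31248 is the lowest at 10 h, at -1.05.

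The comparison of 10 h with 5 h asked whether the genes had moved before 12 h on arrays that had no part in choosing them. Of the 42 genes 30 rose and none fell in a limma fit of all 33 arrays (Benjamini-Hochberg adjusted p under 0.05 over 8692 genes tested), where 4.48% of all genes rose and 6.85% fell. At an unadjusted p under 0.05, 35 were higher and 0 lower. The share of all genes at that cut was not counted, either here or for the unadjusted counts below. The median difference was 1.84 over the 42 genes and -0.03 over all genes. Genes with other symbols that met the same thresholds rose as often, 35 of 49 tested or 71.4% in both groups, with a median of 1.53. The 10 h arrays all lay above the 5 h arrays in 39 genes, though by only 0.0001 in CG10516 and 0.0022 in CG5697. That separation was not counted over all genes. The mean was lower at 10 h in 1, CG31248. Leaving out 1 array of either stage gave 23 to 29 genes that rose, with 29 without array c of 10 h, which was low for these genes.

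The largest rise was that of CG7997, 6.56 ± 0.60 (log2 difference ± SE, n = 3 arrays each) or 94.5-fold, with a limma adjusted p of 1.30e-08. CG11570 followed, with -0.41, -0.49 and -1.75 at 10 h against -4.59, -5.33 and -5.14 at 5 h. Its rise was 4.14 ± 0.46 (SE, limma adjusted p = 4.00e-07), although its 10 h level was still below the reference. CG14118, which has no role given here, stood at 2.86, 3.63 and 2.94 at 10 h against -0.96, -1.11 and -0.54 at 5 h, a rise of 4.01 ± 0.30 (SE, limma adjusted p = 1.93e-09). In these 3 genes no 10 h array came within 2.84 of a 5 h array.

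The 12 genes that did not pass had differences from 1.66 in CG5810 to 0.38 in CG10516, and -0.62 ± 0.32 in CG31248 (SE, limma adjusted p = 0.241). The others were CG14196, CG9360, CG15263, CG5697, CG14125, CG13748, CG15347, CG1143 and CG13086. CG5810 passed without array c of 10 h (adjusted p = 0.0337). The arrays of 10 h and 5 h that bear the same letter deviated together, and with the letter as a block CG9360 (adjusted p = 0.0231) and CG15347 (0.0499) passed as well.

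Of the 30 genes that rose, 21 passed under every alternative in which they were tested. The other 9 did not. CG14244 was lost without array b (adjusted p = 0.128) or c (0.0894) of 5 h and without a (0.0778) or c (0.123) of 10 h. CG15865 was lost without a (0.0786) or b (0.0613) of 5 h or b of 10 h (0.148). CG17233 was lost without any one of the 5 h arrays (0.050 to 0.0971) or a (0.186) or b (0.0946) of 10 h. CG8679, listed also as dLEM3, was lost without a of 5 h (0.0731) or a (0.0518) or b (0.0627) of 10 h. The remaining 5, CG16704, CG3604, CG6763, CG16758 and CG6330, are described with their families below. In the fits that lost a call, the difference was 53.0 to 108.0% of the one reported, with a median of 89.3% over 28 pairs of a gene and a fit.

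**Figure D4:**
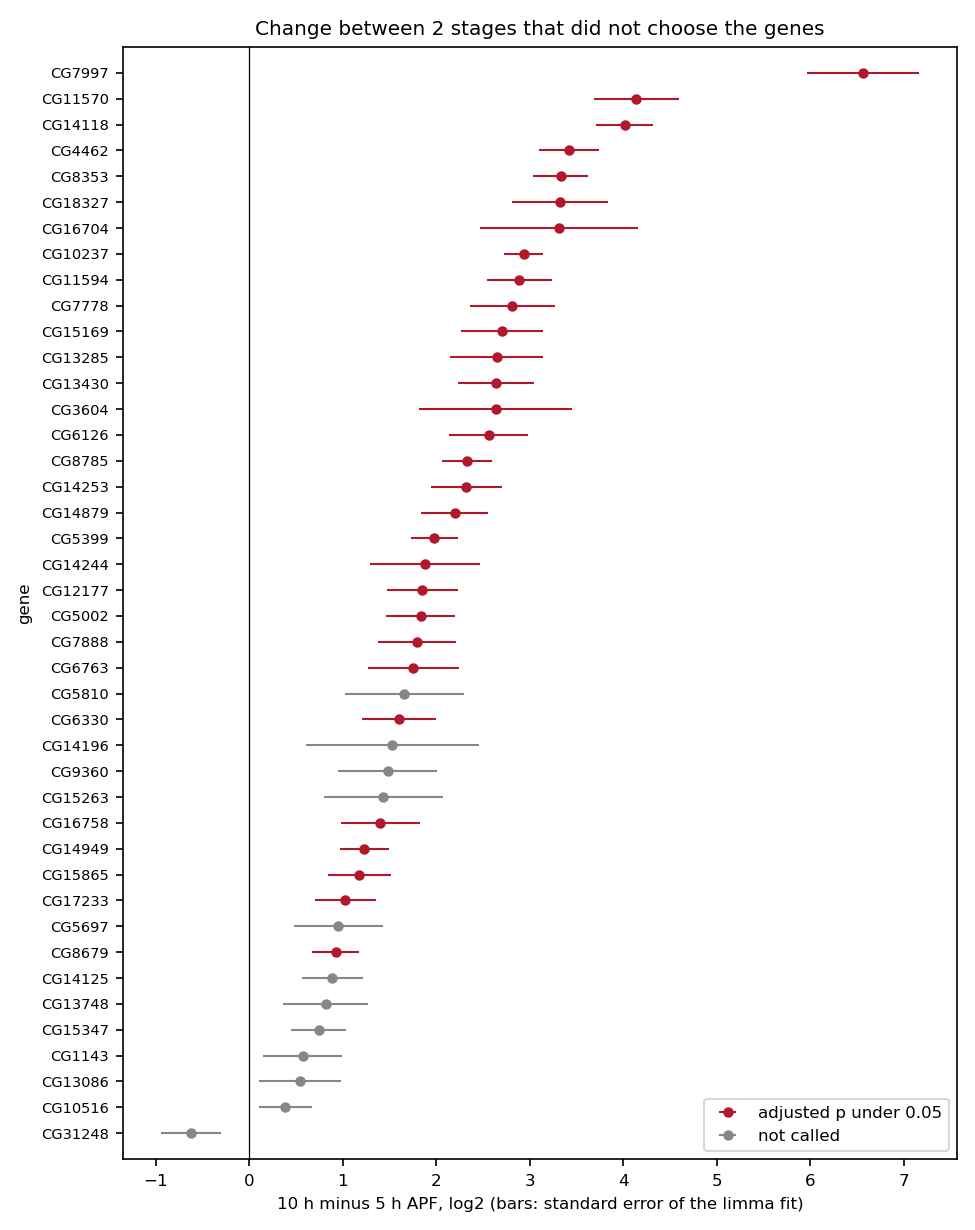
Log2 difference of 10 h minus 5 h for the 42 genes (points, limma estimate; bars, standard error), in order of size, with red for adjusted p under 0.05. CG7997 is at 6.56, 30 genes are red and CG31248 alone lies below 0.

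Among enzymes that act on sugars, CG11594, of the FGGY family of carbohydrate kinases, rose with CG7997. It stood at 2.21, 2.24 and 1.28 at 10 h against -0.96, -1.35 and -0.63 at 5 h, a rise of 2.89 ± 0.35 (SE, limma adjusted p = 1.91e-06). At 12 h its arrays were close together, at 2.12, 2.15 and 2.24. A list of glycosidases in which CG7997 stands had 5 of 22 tested genes higher at 10 h than at 5 h and none lower, with a median difference of 0.85 against -0.03 over all genes. The other 4 were the trehalase gene Treh (4.84 ± 0.74), the mannosidase gene LManV (2.81 ± 0.43), the maltase gene Mal-A2 (2.75 ± 0.38) and tobi (1.28 ± 0.32, SE). Like CG7997, Treh and Mal-A2 met the thresholds of the choice, with excesses at 12 h of 1.58 and 2.81. So did Ect3 (2.52), which did not pass at 10 h over 5 h. The thresholds favoured a rise in these genes, and only LManV and tobi rose without having met them. The call for tobi was lost without array a of 5 h (adjusted p = 0.0711) or b of 10 h (0.0644). At an unadjusted p under 0.05, 9 of the 22 were higher and 1 lower. At 10 h over 4 h BPF the list was mixed, with 7 of 25 tested genes higher and 4 lower (limma, adjusted p under 0.05). The list's median difference there was 0.16, against -0.02 over all genes.

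The nucleoside enzymes among the 42 genes were CG6330, a uridine phosphorylase, CG8353, a cytidine deaminase, and CG16758, a purine nucleoside phosphorylase. All 3 rose between 5 and 10 h. CG8353 gave 1.98, 1.78 and 1.69 at 10 h against -1.74, -1.84 and -0.95 at 5 h, a rise of 3.33 ± 0.30 (SE, limma adjusted p = 8.67e-09). CG6330 rose by 1.60 ± 0.39 (adjusted p = 0.00707) and CG16758 by 1.40 ± 0.42 (0.0288). CG6330 was lost without a of 10 h, with a difference of 1.2 (adjusted p = 0.0765). CG16758 was lost without a of 10 h (1.14, 0.146) or a (1.39, 0.0643) or b (1.21, 0.106) of 5 h.

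Their courses before 5 h differed. CG16758 stood at -0.98, -0.49 and -0.74 at 2 h against -5.54, -4.80 and -3.34 at 4 h BPF, a rise of 3.82 ± 0.42 (SE, limma adjusted p = 1.03e-07). It then stayed between -0.53 and 0.48 on every array from 3 to 8 h before the 12 h values of 2.38, 2.06 and 2.59. Its 4 probes had excesses of 2.05 to 2.33. CG6330 rose by 1.85 ± 0.39 at 5 h over 2 h (adjusted p = 0.00433), and gave 2.31, 2.33 and 2.72 at 12 h. CG8353 differed by 0.08 ± 0.30 between 5 and 2 h (adjusted p = 0.966) and stood at 1.31, 1.53 and 1.45 at 8 h, with 2.66, 2.22 and 2.49 at 12 h.

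The carriers were the mitochondrial carrier CG18327, the amino acid transporters CG7888 and CG8785, CG4462 and CG6126 of the organic cation transporter type, and CG5002 of the sulfate and anion transporter family. All 6 rose at 10 h over 5 h. CG4462 gave 2.03, 2.10 and 1.67 at 10 h against -1.97, -1.47 and -1.02 at 5 h, a rise of 3.42 ± 0.32 (SE, limma adjusted p = 3.73e-08). CG18327 gave 1.92, 2.14 and 0.82 at 10 h against -1.79, -1.93 and -1.37 at 5 h, and rose by 3.32 ± 0.51 (adjusted p = 5.48e-05). The other 4 rose by 1.79 (CG7888) to 2.56 (CG6126), and the arrays of the 2 stages did not overlap in any of the 6 carriers.

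The amino acid transporters, whose family carries free amino acids across membranes, had unlike courses before 6 h. CG7888, which the gene table also lists as SLC36, stood at 1.30, 0.34 and 0.63 at 2 h against -1.83, -2.14 and -1.75 at 4 h BPF, a rise of 2.66 ± 0.42 (SE, limma adjusted p = 2.52e-05). It was again at -2.00, -1.32 and -1.07 at 6 h and -1.51, -0.38 and -1.32 at 8 h, below every one of its 2 h arrays, before 2.09, 1.52 and 0.62 at 10 h and 2.00, 2.07 and 2.90 at 12 h. CG8785 gave -0.17, -0.35 and 0.34 at 5 h against -3.34, -2.27 and -2.06 at 2 h, a rise of 2.49 ± 0.27 (adjusted p = 3.28e-06). Its means stood higher at each stage from 0 h, at -4.36, to 10 h, at 2.27. With a 6 h mean of 0.35 it had the smallest excess of the 42 genes.

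**Figure D5:**
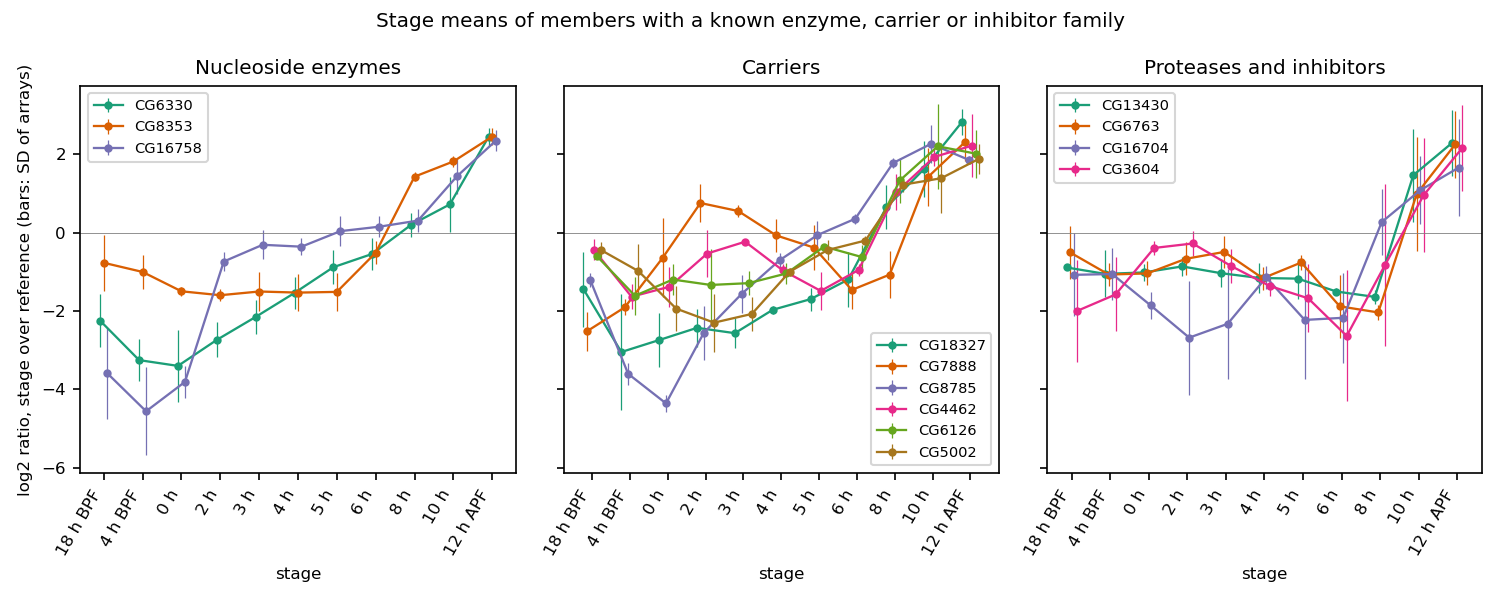
Stage means (points; bars, SD of the arrays of a stage) of log2 ratio over the reference for the nucleoside enzymes, carriers, and proteases with protease inhibitors among the 42 genes, across the 11 stages. CG16758 and CG8785 climb from below -3 at 0 h, CG7888 has a first maximum of 0.76 at 2 h, and CG13430 and CG6763 stay low up to 8 h.

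Of the proteases, CG13430, a trypsin-like serine protease, stood at 2.38, 1.90 and 0.12 at 10 h against -1.29, -1.61 and -0.61 at 5 h, a rise of 2.64 ± 0.40 (SE, limma adjusted p = 5.48e-05). At 8 h it had been at -1.64, -1.81 and -1.47, its lowest stage, and at 12 h it gave 2.86, 1.32 and 2.68. CG6763, of the astacin family of metalloproteases, shared that order, with its lowest mean, -2.04, at 8 h. It gave 2.64, 0.44 and -0.10 at 10 h against -0.97, -0.60 and -0.71 at 5 h, so that array a stood far above the other two. Its rise of 1.75 ± 0.48 (adjusted p = 0.0169) was lost without a of 10 h (0.93, adjusted p = 0.196) and without a of 5 h (0.0548). It was lost also with the replicate letter as a block on the arrays of these 2 stages (0.0511), a fit chosen after the data were seen.

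CG16704 and CG3604 encode proteins with a Kunitz domain, a fold of protease inhibitors, and lie on chromosome arm 2L with 5 genes between them. CG16704 gave 1.69 and 0.47 on 2 arrays at 10 h against -1.21, -3.97 and -1.5 at 5 h. Its rise of 3.31 ± 0.85 (SE, limma adjusted p = 0.0109) was lost without array b of 5 h (2.44, adjusted p = 0.0659). CG3604 gave -0.38, 2.51 and 0.75 at 10 h against -1.26, -2.67 and -1.10 at 5 h. Its rise of 2.63 ± 0.82 (adjusted p = 0.0343) was lost without b of 5 h (0.138) or b of 10 h (0.205). At 12 h array b was low in both, with 2.41, 0.22 and 2.35 for CG16704 and 2.81, 0.91 and 2.77 for CG3604. Of the genes between them CG16713 had all 5 means, with an excess of 0.20. A list of 8 tested serpins, another family of protease inhibitors, had Spn27A (1.67 ± 0.47, SE) and Spn55B (0.89 ± 0.23) higher at 10 h and Spn43Aa (-1.75 ± 0.56) lower. Each of these calls was lost without array a of 5 h (limma adjusted p = 0.0651, 0.0519 and 0.111), and Spn27A and Spn43Aa also without b of 5 h (0.0573 and 0.0517) or a of 10 h (0.0674 and 0.316), Spn27A without b of 10 h (0.0667) and Spn43Aa without c of 5 h (0.0762). Spn27A also met the thresholds of the choice, with an excess at 12 h of 1.53, which favoured its rise.

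CG10237 has a CRAL-TRIO domain, which binds small fat-soluble molecules. It stood near the reference shortly before puparium formation, at 0.15, 0.14 and -0.00 at 4 h BPF. At 2 h it gave -2.52, -2.33 and -2.17, a fall by 2.43 ± 0.21 (SE, limma adjusted p = 1.97e-09), the largest among the 42 genes. It then rose at 5 h over 2 h (1.03 ± 0.21, adjusted p = 0.00271) and by 2.93 ± 0.21 at 10 h over 5 h (1.08e-10). Its 12 h arrays were at 2.23, 1.81 and 2.62.

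CG31248, related to the arylalkylamine N-acetyltransferases, was below its early level at 10 h. Its arrays were at -1.58, -0.60 and -0.38 at 10 h against 0.46, 0.31 and 0.45 at 4 h BPF, and it was the only one of the 42 genes to fall in that comparison, by 1.26 ± 0.29 (SE, limma adjusted p = 0.00151). At 12 h the 2 arrays with a value gave 2.10 and 1.45. CG14125 was likewise near its early level at 10 h, with 0.12, -0.34 and -0.02, and gave 2.69, 0.67 and 1.65 at 12 h.

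Against 4 h BPF, 32 of the 42 genes were higher at 10 h and 1 was lower (limma, adjusted p under 0.05), where 10.9% of 9009 genes tested were higher and 10.5% lower. This comparison shares the 10 h arrays with the one against 5 h. The choice favoured a rise here too, because 4 h BPF lies between 18 h BPF and 0 h. The largest rise was that of CG15169, which has no role given here, with 2.29, 2.76 and 2.08 at 10 h against -5.40, -5.59 and -3.69 at 4 h BPF, or 7.27 ± 0.44 (SE, adjusted p = 3.59e-13). CG7997 rose by 6.72 ± 0.60, CG16758 by 6.00 ± 0.42, CG8785 by 5.87 ± 0.27 and CG7778 by 5.41 ± 0.45. CG14949, CG8679 and CG16704 rose at 10 h over 5 h but differed here by 0.72, 0.35 and 2.14 (adjusted p = 0.0552, 0.392 and 0.0779). Of the 33 calls 4 were lost on leaving out single arrays: CG14244 without any one of the 4 h BPF arrays b or c or the 10 h arrays a or c (adjusted p = 0.0777 to 0.151), CG3604 without a of 4 h BPF (0.135) or b of 10 h (0.164), CG5810 without a of 4 h BPF (0.0603), and CG6763 without a of 10 h (0.0653). That of CG14244 was also lost in fits without an array of another stage, down to an adjusted p of 0.0505. Among cell markers 4 of 6 tested haemocyte genes were higher at 10 h than at 4 h BPF, with a list median of 1.03, as were 2 of 4 tracheal genes and 1 each of 3 enterocyte, 6 visceral muscle, 2 salivary gland and 4 Malpighian tubule genes. Lower were 1 each of 2 progenitor, 3 enterocyte and 5 enteroendocrine genes, and the part of these markers in the result was not tested.

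Across puparium formation, at 2 h against 4 h BPF, 10 of 41 tested genes rose and 3 fell, where 9.76% of 8250 genes rose and 5.61% fell (limma). CG16758, CG15169 (2.91 ± 0.44, SE) and CG7888 rose most, and the others were CG7778, CG14879, CG14118, CG15865, CG4462, CG8785 and CG10516, by 1.02 to 1.67. Besides CG10237, CG11570 fell by 1.66 ± 0.46 (adjusted p = 0.0119, or 0.10 after quantile normalization) and CG5002 by 1.32 ± 0.37 (0.0124). The number that rose was 6 without array a of 4 h BPF and 6 without b or c of 2 h. CG7778, CG15865, CG4462 and CG10516 were lost without a of 4 h BPF (adjusted p = 0.0729 to 0.151), CG14879 and CG4462 without b of 4 h BPF (0.0863 and 0.0895), CG7778 without b of 2 h (0.0502) and CG8785 without c of 2 h (0.0533). CG5002 was lost without c of either stage (0.0724 at 4 h BPF, 0.0971 at 2 h), and 3 genes had too few values at 2 h to be tested without b or c. In the same comparison all 4 tested tracheal markers were higher, with a list median of 1.35, and 2 of 6 visceral muscle markers and 1 of 6 enteroendocrine markers lower, and their part was not tested.

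Between 2 and 5 h some of the genes had already risen. Of 41 tested, 6 (14.6%) were higher at 5 h and none lower, where 1.76% of 8181 genes were higher and 1.5% lower (limma). The median difference was 0.52 over the tested genes and -0.04 over all genes. At an unadjusted p under 0.05 the numbers were 12 and 2. The 6 that passed were CG8785, CG6330, CG5002 (1.85 ± 0.37), CG15169 (1.66 ± 0.44), CG10237 and CG5399 (0.89 ± 0.25, SE). Of those that did not pass, CG5697 came nearest (1.58 ± 0.48, adjusted p = 0.0661). CG15169 was lost without a (adjusted p = 0.153) or c (0.0959) of 2 h or b (0.0614) or c (0.126) of 5 h, and CG5399 without a (0.213) or c (0.0879) of 2 h or a (0.127) or c (0.180) of 5 h, and narrowly without b (0.0501) or c (0.0507) of 4 h. Of the cell markers, 2 of 5 tested haemocyte genes were higher at 5 h (list median 1.13) and 2 of 4 tracheal genes lower (list median -0.58), and their part was not tested. A moderated F test over the 6 stages that did not choose the genes called 35 of 40 tested, against 32.6% of 7084 genes. These stages include 10 h, so the choice favoured such calls as well. CG3604, CG15263, CG14125, CG14196 and CG13086 did not pass, and CG13748 and CG15347 had too few values.

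The genes lay on all the large chromosome arms, 9 on 2L, 6 on 2R, 11 on 3L, 11 on 3R and 5 on X, against shares of 17.9%, 18.8%, 21.5%, 25.5% and 15.9% of the 2087 genes. CG14949 and CG1143 are neighbours on 3L with no protein-coding gene between them. They gave 2.00, 1.18 and 1.96, and 2.14, 1.62 and 2.04 at 12 h, with all 10 h arrays at 0.36 or lower. CG11570 and CG14125 lie on 3L with 4 genes between them, and CG6330 and CG14253 on 3R with 3 between them. Of those 3, Tsp97E and CG5521 had a 12 h mean below their highest earlier mean, by 0.97 and 1.02.

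Most of the genes, 38 of 42, were read by 1 probe. The 2 probes of CG6330 had excesses of 3.23 and 2.85, and those of CG7888 3.26 and 2.94. The probes of CG17233 disagreed: 2 gave 12 h means of 2.18 and 1.81, and the third, with values on 14 arrays, gave 0.03. Without array a, b or c of 12 h the thresholds took 34, 43 and 39 genes, of which 34, 36 and 38 were among the 42. Without b, CG13086, CG13748, CG14244, CG15347, CG8785 and CG9360 were lost. All of these but CG8785 were left with fewer than 2 array values at 12 h.

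Of the cell type markers, some rose and some fell at 10 h over 5 h, where 4.48% of all genes rose and 6.85% fell. At 10 h over 5 h, 4 of 6 tested visceral muscle genes rose (Mp20 1.93 ± 0.36, Tm2 1.38 ± 0.31, Mlc1 0.79 ± 0.25 and up 0.70 ± 0.21, SE), their stage means running from -0.29 to 0.57 at 10 h against -1.36 to 0.20 at 5 h. At 12 h those means ran from -0.72 to 0.45. The median of the muscle markers was 0.72 at 18 h BPF, 0.52 at 10 h and 0.16 at 12 h. The 42 genes had a median of -0.94 at 18 h BPF, a stage at which they were chosen to be low against 12 h. Their difference from the markers there was therefore set in part by the choice, and nothing is concluded from it. The calls for Mlc1 and up were lost without single arrays (limma adjusted p = 0.0631 to 0.211 and 0.0719 to 0.202). Of 4 Malpighian tubule genes ZnT35C rose by 1.65 ± 0.42, not without array b of 10 h (0.105). Of 2 progenitor genes Sox21a fell by 0.88 ± 0.21, and of 4 tracheal genes btl fell by 0.91 ± 0.29, a call lost without a (0.211) or b (0.0519) of 5 h or a (0.0779) or b (0.128) of 10 h. None of the tested markers of enterocytes (3), enteroendocrine cells (5), fat body (3), salivary gland (2) or haemocytes (5) passed in either direction, and at an unadjusted p under 0.05 only 1 of them, the enteroendocrine gene pros, was higher and 0 lower (limma). Haemocyte markers had a median of 1.42 at 8 h, 0.24 at 10 h and -0.33 at 12 h. Ratios to a reference of the same tissue show change and no absolute level, so the markers could not show which cells were present, and their part in the change of the 42 genes was not tested. Of 12 tested ecdysone regulators, ftz-f1, a nuclear receptor gene of the prepupa, rose (0.81 ± 0.23, adjusted p = 0.0173), a call lost without b of 5 h (0.0617) or a of 10 h (0.101). Of 3 lysosomal proteases none passed, with 0 higher and 1 lower at an unadjusted p under 0.05 (limma).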

How the data were processed

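The 42 genes and the gene lists were chosen with earlier results of these data known. The authors deposited 1 table of log ratios, 1 value per probe and array, read here as log2 of stage over reference; its base and direction, and how background was corrected and arrays normalized, the sources used here do not give. Per the labels, RNA was amplified by in vitro transcription and Cy5 marked the stage. Averaged over the 10 pooled stages, linear ratios should be near constant: the SD of their log2 mean over 7257 probes was 0.117 as log2 of stage over reference, 0.509 with the sign turned, and 0.204 and 0.792 with natural logarithms. Signal intensities were not used, so the number of arrays limits the precision. Of 14064 probes with a value, 10828 had 1 gene symbol in the platform annotation, 227 several and 3009 none; 4 of the 10828 were not matched in the RefSeq gene table (names and gene order only). Probes were averaged per gene.

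All tests came from limma 3.58.1 in R 4.3.3, with 1 model of 11 stages over 33 arrays, 2 or more values per compared stage, and Benjamini-Hochberg adjustment over all genes tested (threshold 0.05). On simulated data for 10 h against 5 h (5881 genes, 100 changed by 1 and 100 by 2), 68% and 96% were recovered, and 9 of 173 calls were false. The simulation used independent normal noise, left out genes with many missing values, and had no shared deviation of same-letter arrays. Its rates may therefore not hold for the real data. Figures were drawn with Matplotlib 3.10.9, and tables made with pandas 2.3.3 and NumPy 2.4.6 in Python 3.11.15. Genes given with array values were CG7997, CG11570, the 12 with the largest excess, the 6 with the largest rise at 10 h over 5 h, those nearest the threshold, members of shared families or neighbouring genes, and members with a role; at most 3 genes per list and direction were to be named, and a few more were named after their values were seen. Alternatives were centred arrays, quantile normalization, other filters on missing values, single probes, the replicate letter as a block, each array left out, platform symbols and other thresholds. Over 1993 genes, same-letter arrays of 10 h and 5 h correlated in their deviations from the stage means (0.39, 0.29 and 0.28), though the labels do not say what a letter marks; 5 h and 2 h gave 0.32, 0.07 and 0.28, 10 h and 4 h BPF -0.40, -0.12 and -0.31, and 2 h and 4 h BPF -0.26, -0.12 and -0.20.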

Additional observations from a re-analysis of the deposited data

How the results depend on the processing

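In the fits by gene no called difference of the 42 genes changed sign in any alternative; among those not called the sign changed in 0 cases (a gene in a fit) at 10 h over 5 h, 2 at 10 h over 4 h BPF, 24 at 2 h over 4 h BPF and 19 at 5 h over 2 h. With only genes measured on all arrays, where 22 of the 42 could be tested, 19 genes rose at 10 h over 5 h, 20 rose and 0 fell at 10 h over 4 h BPF, 5 rose at 2 h over 4 h BPF and 21 passed the F test. Leaving out single arrays gave 23 to 29 rises at 10 h over 5 h, 29 to 32 at 10 h over 4 h BPF, 6 to 11 rises and 2 to 4 falls at 2 h over 4 h BPF, 4 to 7 rises at 5 h over 2 h, 27 to 36 F calls, and 33 to 43 genes meeting the thresholds. With the replicate letter as a block the rises were 32, 34, 11 and 7 and the F calls 35; on the 10 h and 5 h arrays alone, a fit added after the data were seen, 34 rose, with CG5810, CG9360, CG14125, CG14196 and CG15263 gained and CG6763 lost. Apart from CG9360 and CG15347, the block over all arrays changed no call at 10 h over 5 h. A threshold of 1 took 64 genes and of 2 took 30. Quantile normalization also left 30, and lost CG14244, CG15865 and CG6330 at 10 h over 5 h (adjusted p = 0.279, 0.0971 and 0.0667) while CG5810 and CG14125 passed (0.0485 and 0.00542). It also lost tobi (0.138), ZnT35C (0.0721) and Mlc1 (0.0619) there, CG14244 at 10 h over 4 h BPF (0.0561) and CG5399 at 5 h over 2 h (0.0728); the cause was not tested. Centring on array medians ended the calls for Spn43Aa and btl (0.0515 and 0.0615). With 3 arrays a stage and 20 of the 42 genes lacking some values, small differences could not be resolved.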

Other observations

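The thresholds took 42 of 2087 CG-numbered genes (2.01%) and 50 of 3745 genes with other symbols (1.34%); the 2 shares were not compared by a test. The largest excesses among the 50 were those of the chitinase gene Cht8 (6.36), the organic ion transporter gene SLC22A (4.51) and the gut chitin synthase gene Chs2 (3.25). At 10 h over 5 h, 30 of the 42 CG-numbered genes and 35 of 49 tested genes with other symbols rose (limma, adjusted p under 0.05), 71.4% of each, with median differences of 1.84 in the CG-numbered genes and 1.53 in the others. Cht8 rose by 5.08 ± 0.69 (SE, n = 3 arrays each, adjusted p = 9.75e-06) and Chs2 by 2.20 ± 0.32 (2.07e-05). In a list of 15 tested chitin genes Idgf2 (1.2 ± 0.28) and Idgf3 (0.97 ± 0.22) rose with them and none fell. The list's median was -0.11, and 1 gene was lower at an unadjusted p under 0.05 (limma). Idgf2 lacked a value on some 10 h arrays and could not be tested without b or c of 10 h. Of 1405 probes with no gene name here and all 5 means, 11 met the same thresholds.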
